A study of Saccharomyces cerevisiae with 15 samples.

Results

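Polyadenylated RNA of the ulp2 and slx5 single mutants of budding yeast was compared directly, in 3 libraries of each, which are 6 of the 15 libraries of the series. The libraries were chosen by their labels alone. Per the labels, the ulp2 strain is MHY5033, MATalpha, with ULP2 replaced by kanMX, and the slx5 strain is MHY7919, MATalpha, with SLX5 replaced by kanMX. Both labels also list the his3, leu2, met15, ura3 and lys2 deletion alleles, and both strains grew in rich glucose medium (YPD) at 30 °C. The other groups were wild type (WT, strain MHY2972, MATa, with the his3, leu2, ura3 and lys2 alleles), set1 (strain MHY8915, MATalpha, with the allele list of ulp2 and slx5 and SET1 replaced by HIS3) and an ulp2 slx5 double mutant, which entered the fit but is not described. Each genotype is a single strain, and the labels do not say whether its 3 libraries came from separate cultures. The p-values therefore rest on the spread between libraries of the same strain, pooled over the 5 groups of the fit. This spread may be technical. The deletion and anything else that sets a strain apart cannot be told apart.

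SUMO is a small protein that is attached to other proteins and changes what they bind. Ulp2 is a nuclear protease that trims SUMO chains from proteins, and Slx5 pairs with Slx8 in a ubiquitin ligase that recognises such chains and marks the proteins carrying them, which the Cdc48 segregase and the proteasome then handle. Yeast cells that lack Ulp2 have been described as gaining extra chromosomes, and gains of a chromosome in yeast usually raise the RNA of the genes on it.

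The values are FPKM (fragments scaled to the length of the transcript and to the mapped total), one per gene and library, and differences are given as ulp2 minus slx5 on the log2(FPKM + 1) scale. Calls required an adjusted p below 0.05 in limma's moderated test over all 15 libraries, with Benjamini-Hochberg adjustment over the 6474 tested genes. Counts were not analysed here, so absolute depth is unknown; the steps between low values put the relative depth of the 6 libraries at 0.812 to 1, with slx5 replicate 1 the deepest and set to 1. Across genes, log2 values correlated by 0.968 to 0.976 between ulp2 libraries, by 0.974 to 0.979 between slx5 libraries and by 0.948 to 0.956 between the genotypes. RPL41A and RPL41B, which encode a tiny ribosomal protein, took 7.99 to 10.8% of the FPKM of the ulp2 libraries and 11.2 to 15.9% of the slx5 libraries.

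The targeted genes matched the labels, while RNA of MET17 in ulp2, and of LYS2 and HIS3 in both strains, was present although the labels list these genes' deletion alleles. ULP2 (YIL031W, on chromosome IX of build R64 from 292633 to 295737) was listed at 0.0691, 0.0377 and 0 FPKM in the 3 ulp2 libraries and at 24.6, 26.0 and 26.4 in slx5. SLX5 (YDL013W, chromosome IV, 429067 to 430926) stood at 22, 28.2 and 28.4 in ulp2 and at 0.0622, 0.0563 and 0 in slx5. MET17, the sulfhydrylase gene that the met15 allele removes, stood at 329, 315 and 286 in ulp2 and at 0.359, 1.06 and 0.764 in slx5. The libraries labelled ulp2 thus carried MET17 RNA against their label, and the strains differ in this sulfur metabolism gene as well as in the named deletions. LYS2, a lysine synthesis gene listed as deleted in both labels, was present in both strains against their labels, at 44.6, 47.8 and 46.1 in ulp2 and 44.1, 43.0 and 43.1 in slx5, and it was not called between them (0.09, 95% interval ± 0.16). HIS3, a histidine synthesis gene, stood at 123, 120 and 122 in ulp2 and 120, 131 and 133 in slx5, and was not called either (-0.07, 95% interval ± 0.21). LEU2 and URA3 were listed at 0 in all 6 libraries.

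Mating-type markers showed alpha-type RNA in both strains. MF(ALPHA)1, which encodes the alpha-factor pheromone, stood at 4297, 3793 and 3811 in ulp2 and 4437, 4372 and 4468 in slx5. Every slx5 library was above every ulp2 library, but the gene was not called (-0.16, SE 0.26, adjusted p = 0.66). The SE of the fit also draws on the other groups, among them WT, where this gene had a mean of 5.73 (SD 2.89). It thus does not measure the spread of the ulp2 and slx5 libraries alone. MF(ALPHA)2 and STE3, the a-factor receptor gene, were lower in ulp2, by -0.38 (SE 0.060, adjusted p = 0.00021) and -0.37 (SE 0.10, adjusted p = 0.0096), and lie on chromosomes VII and XI. The agglutinin gene SAG1 did not differ in the test (0.00, 95% interval ± 0.22). HMRA1, the a-type regulator, reached 0.481 in 1 ulp2 library and was otherwise listed at 0. The alpha genes of the silent locus, HMLALPHA1 and HMLALPHA2, were listed at 0.

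Transcripts of a-cell genes were low in both strains and higher in ulp2 than in slx5. MFA1, a gene of the a-factor pheromone, stood at 800.2, 617 and 564 in ulp2 and 335, 172 and 219 in slx5, against a mean of 7749 in the MATa WT. The other a-factor gene, MFA2, stood at 157, 135 and 187 in ulp2 and 60.0, 21.6 and 82.4 in slx5. STE2, the alpha-factor receptor gene, stood at 32.7, 32.9 and 30.2 in ulp2 and 16.7, 12.3 and 13.5 in slx5. The groups did not overlap in these genes, as in 57.1% of all tested genes. The differences were 1.49 (SE 0.35) for MFA1, 1.71 (SE 0.42) for MFA2 and 1.13 (SE 0.089) for STE2, with adjusted p of 0.0039, 0.005 and 4.1e-07. BAR1 (0.93), a protease that degrades alpha-factor, AGA2 (0.80), an agglutinin subunit, and ASG7 (0.67) were also called. Thus 6 of 7 a-cell genes were higher (22.7% of all genes). The call of ASG7 was lost under quantile normalization (adjusted p = 0.059) and without ulp2 replicate 0 or slx5 replicate 2 (adjusted p = 0.060 in each). STE6, the a-factor exporter, was not called (0.08). In set1, the other MATalpha strain, the means of MFA1 and STE2 were 89.9 and 7.45, below every ulp2 and slx5 library, and the mean of MFA2 was 54.1, within the range of the slx5 libraries. In bulk RNA, fewer a-type cells and less a-type RNA per cell cannot be told apart.

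Across the genome, 2957 of 6474 tested genes were called (45.7%), 1468 higher in ulp2 (22.7%) and 1489 lower (23.0%). At 2-fold or more, 157 genes were higher (2.43%) and 120 were lower (1.85%), and the number higher was 83 with a pseudocount of 5 and 239 with the libraries scaled to a common median. The even split depended on the scaling of the libraries. With each library scaled to a common median outside chromosomes I, VII and XII, 1901 genes were higher and 1124 lower, so that 62.8% of the called genes were higher, against 49.6% as deposited. With totals equalised after leaving out RPL41A and RPL41B, 1038 were higher and 1635 lower, or 38.8% higher. The median difference of all tested genes was 0.01 as deposited, 0.08 under the first of these scalings and -0.06 under the second. The 3 ulp2 and 3 slx5 values did not overlap for 57.1% of tested genes.

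The genes of 2 chromosomes were raised as a whole in ulp2. On chromosome I, 83 of 91 tested genes were called higher in ulp2 and 2 lower, and the median gene differed by 0.96 more than the median gene of the other chromosomes. On chromosome XII, 426 of 494 were higher and 7 lower, with a median 0.78 above the rest. By the annotation, these 2 chromosomes held 509 of the 1468 higher genes (34.7%) and 104 of the 157 that were at least 2-fold higher. Genes not matched to it are not placed, so both counts are lower bounds. Of the 157, 11 unmatched genes carry systematic names of these chromosomes. The difference came from the ulp2 side. Against the WT mean, the 3 ulp2 libraries had levels of 0.91 to 0.96 on chromosome I and 0.83 to 0.85 on chromosome XII. The 3 slx5 libraries had levels of 0.03 to 0.05 on I and 0.01 to 0.02 on XII, and the WT libraries set against each other had -0.03 to 0.03 on I and -0.01 to 0.01 on XII. With set1 as the reference instead, ulp2 had 0.85 to 0.91 on I and 0.78 to 0.80 on XII. Chromosome numbers were not measured in these RNA libraries.

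Genes of chromosomes VII and XI were lower in ulp2 by a smaller amount, and here slx5 was the strain that stood above WT. On chromosome VII, 295 of 531 tested genes were lower in ulp2 and 16 higher, and the median was -0.30 relative to the other chromosomes. On chromosome XI, 155 of 314 were lower and 15 higher, with a median of -0.25. Against WT, chromosome VII had levels of 0.21 to 0.22 in the slx5 libraries and -0.10 to -0.08 in ulp2. Chromosome XI had 0.12 to 0.13 in slx5 and -0.10 to -0.09 in ulp2. By the annotation, both chromosomes together held 450 of the 1489 lower genes (30.2%). On chromosome IX, where 76 genes of 213 were higher in ulp2 and 27 lower, the slx5 libraries lay below WT, at -0.17 to -0.09. On chromosome XIII, where 151 of 458 were higher and 67 lower, the ulp2 libraries stood at 0.10 to 0.11 above WT and the slx5 libraries at -0.03.

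**Figure D1:**
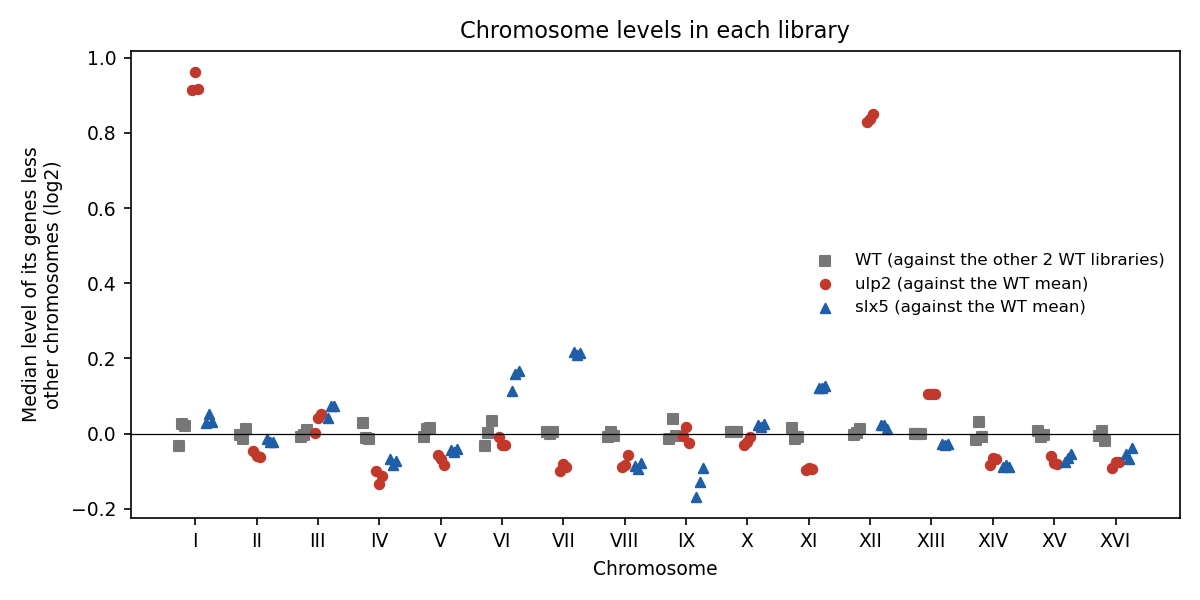
Level of each of the 16 chromosomes (x axis) in each library, as the median log2 difference of its genes from the reference less the same median over the other chromosomes (y axis). The ulp2 (circles) and slx5 (triangles) libraries are set against the WT mean and each WT library (squares) against the other WT libraries; ulp2 stands at 0.91 to 0.96 on chromosome I and 0.83 to 0.85 on XII, and slx5 at 0.21 to 0.22 on VII.

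The raised levels ran along the whole of both chromosomes. In consecutive windows of about 30 genes, the 3 windows of chromosome I had medians of 0.92 to 0.97 and the 16 windows of chromosome XII had 0.62 to 0.85. The 18 windows of chromosome VII ranged from -0.42 to -0.08 and the 10 windows of chromosome XI from -0.33 to -0.13, so that no window of either was above 0. Outside these 4 chromosomes, windows ranged from -0.21 to 0.27, with the highest at the end of chromosome XIV. Of the 4412 tested genes placed outside chromosomes I, VII, XI and XII, 842 were higher (19.1%) and 987 lower (22.4%).

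**Figure D2:**
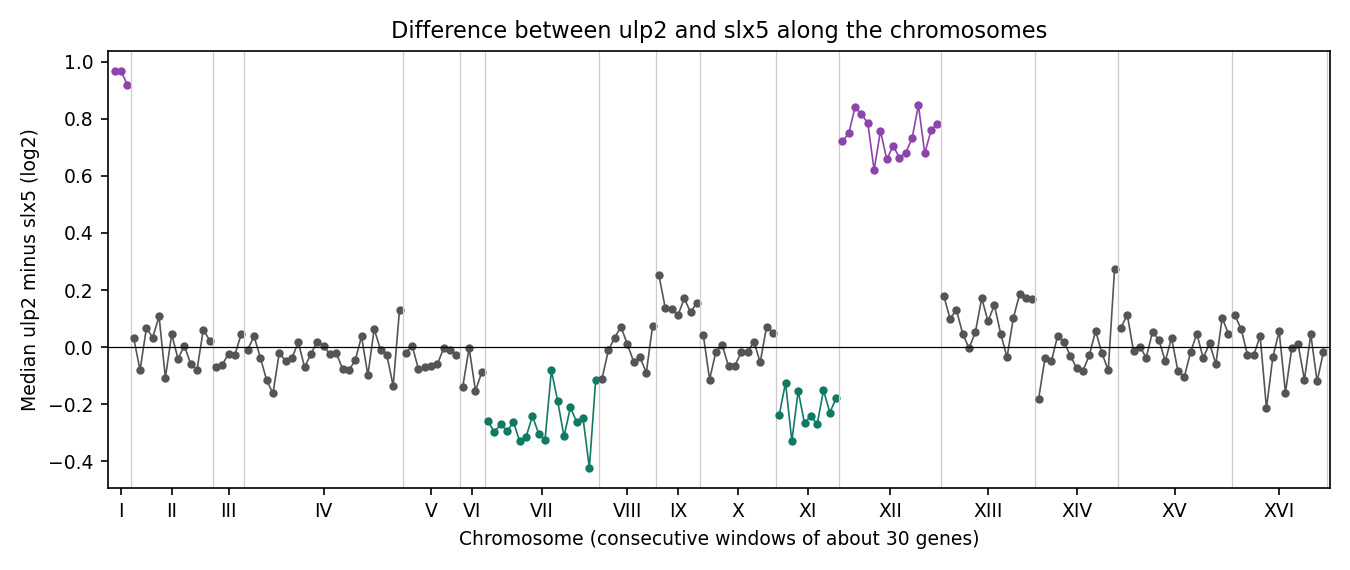
Median ulp2 minus slx5 difference (log2, y axis) in consecutive windows of about 30 genes along the 16 chromosomes (x axis), each point a window. Chromosomes I and XII (purple) stand at 0.62 to 0.97 in every window, and VII and XI (green) at -0.42 to -0.08.

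Single genes on chromosome I differed by similar amounts, and for EFB1 and CDC19 slx5 also lay below WT. EFB1 (YAL003W, 142174 to 143160), encoding translation elongation factor 1B alpha, stood at 6803, 6310 and 6425 in ulp2 and 3123, 3197 and 3223 in slx5, a 2.05-fold difference (log2 1.03, SE 0.076, adjusted p = 2.3e-07). CDC19 (YAL038W, 71786 to 73288), encoding pyruvate kinase, stood at 3652, 3459 and 3537 against 1815, 1815 and 1803, or 1.96-fold (SE 0.062 on log2, adjusted p = 7.2e-08). In both genes every ulp2 library was above every slx5 library. The WT mean lay between them, at 4049 for EFB1 (0.69 for ulp2 minus WT and -0.35 for slx5 minus WT) and at 2713 for CDC19 (0.39 and -0.58). CLN3 (YAL040C, 65778 to 67520), the G1 cyclin that starts the cell cycle, stood at 158, 188 and 182 in ulp2 and 79.9, 83.7 and 84.3 in slx5, where the WT mean was 79.6. Its difference was 1.08 (SE 0.087, adjusted p = 5.3e-07). CCR4 (YAL021C, 110846 to 113359), the deadenylase of the CCR4-NOT complex, stood at 90.7, 106 and 98.9 in ulp2 and 54.2, 57.1 and 53.9 in slx5 (0.82, SE 0.086, adjusted p = 5e-06).

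On chromosome XII, the examples are abundant genes, and being called was part of their choice. The pyruvate decarboxylase gene PDC1, which stood above most of them, was not called. CCW12, encoding a cell wall mannoprotein, stood at 34896, 35400 and 35554 in ulp2 and 22587, 23634 and 22612 in slx5 (0.62, SE 0.096, adjusted p = 0.00015). The ribosomal protein genes RPS31 (0.74), RPS30A (0.68), RPL15A (0.63) and RPL38 (0.87) were higher in each ulp2 library than in any slx5 library. For RPS31, RPS30A and RPL15A, ulp2 was not called against WT (0.17, 0.14 and -0.23), while slx5 was lower than WT (-0.56, -0.54 and -0.86). RPL38 was higher in ulp2 than in WT (0.73), and slx5 was not called against WT (-0.14). ILV5, encoding an enzyme of branched-chain amino acid synthesis, had 2170, 2070 and 2159 against 1070, 1060 and 1027 (1.02, SE 0.042, adjusted p = 2.3e-09).

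A few genes of these chromosomes went the other way. SSA1 (YAL005C, chromosome I, 139503 to 141431), encoding a cytosolic Hsp70 chaperone, stood at 323, 339 and 347 in ulp2 and at 499, 527 and 537 in slx5, with a WT mean of 67.1. Its difference was -0.63 (SE 0.071, adjusted p = 1.1e-05), and it shares much sequence with SSA2, whose fragments the authors' counting could have split with it. ACO1 (YLR304C, chromosome XII, 735212 to 737548), the mitochondrial aconitase gene, stood at 141, 158 and 165 in ulp2 and 301, 306 and 305 in slx5 (-0.97, SE 0.069, adjusted p = 1.8e-07). AHP1 (-0.79), encoding a peroxiredoxin, and SDH2 (-0.77), encoding a succinate dehydrogenase subunit, were the other genes named on chromosome XII by the lowest difference. The remaining called exceptions, named after their values were seen, were TFS1 (-0.63), HSP104 (-0.53), HSP60 (-0.31) and ERG3 (-0.30) on XII and GCV3 (-0.23) on I. GCV3 lost its call under 9 of the 16 alternatives, so that its lower level is uncertain. BDH1 on chromosome I, encoding butanediol dehydrogenase, was not called (0.05, 95% interval ± 0.21).

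The largest falls in ulp2 outside chromosomes I and XII included the DNA damage gene HUG1 and the ribonucleotide reductase gene RNR4. HUG1 (YML058W-A, chromosome XIII, 158760 to 158966), a small inhibitor of ribonucleotide reductase induced by DNA damage, stood at 120, 118 and 119 in ulp2 and 962, 964 and 1080 in slx5. It was 8.34-fold higher in slx5 (log2 -3.06, SE 0.099, adjusted p = 4.2e-10), with WT at 44.2 and set1 at 298. RNR4 (chromosome VII), a small subunit of ribonucleotide reductase, stood at 638, 613 and 608 in ulp2 and 1972, 1970 and 1985 in slx5, against 736 in WT (-1.67, SE 0.055, adjusted p = 4.2e-10). RNR2 (chromosome X), the other small subunit, stood at 271, 260 and 249 against 712, 714 and 717 (-1.46, SE 0.066, adjusted p = 5.2e-09). The groups were widely apart in all of these, and the ulp2 values of RNR2 did not differ from WT in the test (-0.10, adjusted p = 0.21). RNR3 (-1.17) and RNR1 (-0.66), the large subunits, were lower in ulp2 as well. Of 24 listed genes of ribonucleotide reductase and the DNA damage response, 10 were lower and 3 higher (23.0% and 22.7% of all genes). Their median was -0.23 against 0.01 over all genes.

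**Figure D3:**
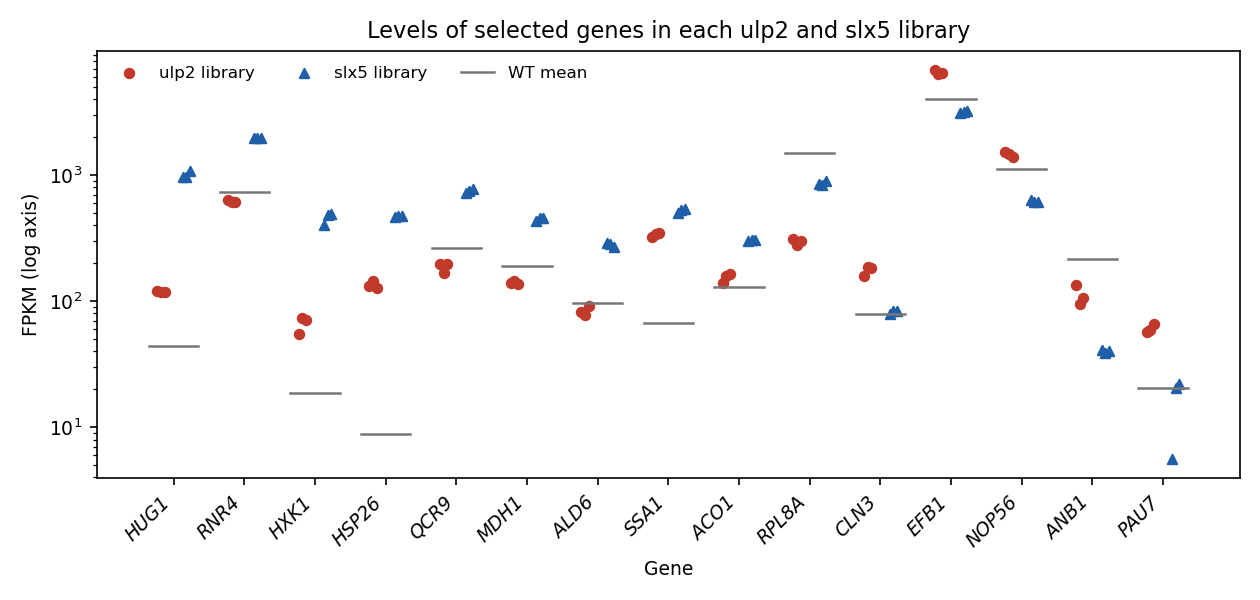
FPKM on a log axis (y) of 15 genes (x) in the 3 ulp2 libraries (red circles) and the 3 slx5 libraries (blue triangles), with the WT mean as a grey line. HUG1, at 118 to 120 in ulp2, reached 962 to 1080 in slx5, and EFB1 on chromosome I, at 3123 to 3223 in slx5, reached 6310 to 6803 in ulp2.

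Several genes of carbon metabolism were among the largest falls in ulp2. HXK1 (YFR053C, chromosome VI, 253592 to 255049) encodes the hexokinase made when glucose is scarce. It stood at 55.1, 73.2 and 71.4 in ulp2 and 403, 485 and 488 in slx5 (-2.77, SE 0.11, adjusted p = 2.3e-09). The WT mean was 18.8 and the set1 mean 148. YFR052C-A, which is not in the annotation used here and whose systematic name places it beside HXK1, had the same difference (-2.77), and strandedness of the counting was not stated. ALD6, encoding cytosolic acetaldehyde dehydrogenase, stood at 81.5, 78.3 and 91.3 in ulp2 and 287, 283 and 268 in slx5 (-1.73, SE 0.067, adjusted p = 1.3e-09), where WT had 97.1. Each slx5 library was thus well above each ulp2 library. EMI2 (-1.46), a hexokinase-like gene, and ALD4 (-1.30), a mitochondrial aldehyde dehydrogenase gene, were also lower. Among 35 genes of glycolysis and fermentation, 16 were lower and 10 higher (23.0% and 22.7% of all genes). Outside chromosomes I, VII, XI and XII, 10 of 22 were lower and 4 higher (22.4% and 19.1% of all genes there). Of 20 hexose transporter genes, 6 were lower, HXT7 (-1.07) and HXT1 (-0.91) among them, and 2 higher, GAL2 (0.80) and HXT5 (0.76). These transporters resemble each other in sequence, so their separate values are uncertain.

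Respiratory chain genes had the lowest median of the 40 lists. Of 39 genes of the respiratory chain and ATP synthase, 35 were lower in ulp2 and 0 higher (23.0% and 22.7% of all genes). Their median was -1.10, and 30 of the 31 outside the 4 shifted chromosomes were lower (22.4% of all genes there). QCR9 (YGR183C, chromosome VII, 859063 to 859476), a subunit of complex III, stood at 197, 168 and 199 in ulp2 and 717, 755 and 780 in slx5, with WT at 264 (-2.00, SE 0.14, adjusted p = 2.1e-07). RIP1, the Rieske protein of the same complex, stood at 41.0, 37.2 and 36.9 against 112, 118 and 115 (-1.56, SE 0.12, adjusted p = 3.3e-07). CYC1, the main cytochrome c gene, stood at 73.6, 63.2 and 78.8 against 182, 210 and 221 (-1.50, SE 0.10, adjusted p = 1.3e-07). In each of these the slx5 libraries were far above the WT mean. Set against the same WT libraries, 39 of the 39 genes were higher in slx5 (25.6% of all genes were), while 5 were higher and 13 lower in ulp2 (27.8% and 26.7% of all genes). Against set1, 33 were higher and 1 lower in slx5 (20.5% and 22.7% of all genes), while 2 were higher and 28 lower in ulp2 (22.8% and 26.0%). HAP4, the regulatory subunit of the Hap complex that activates respiratory genes, was lower in ulp2 (-0.76, SE 0.097, adjusted p = 3.1e-05); it was chosen after the values of the list were seen. The Hap motif CCAAT, added after the data were seen, lay in 32 of 39 promoters of the list and in 43.3% of all 6020 promoters, counted on both strands from 250 bases before to 50 bases after the start of the coding sequence.

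The TCA cycle and the mitochondrial ribosome followed in the same direction. Of 26 TCA cycle genes 17 were lower and 4 higher (median -0.65), beside 23.0% and 22.7% of all genes. Of the 17 outside the shifted chromosomes, 10 were lower and 3 higher (22.4% and 19.1% of all genes there). MDH1, mitochondrial malate dehydrogenase, stood at 140, 146 and 137 in ulp2 and 437, 459 and 455 in slx5 (-1.67, SE 0.085, adjusted p = 1.2e-08), with WT at 191. IDH2, an isocitrate dehydrogenase subunit, stood at 184, 182 and 186 against 524, 509 and 527 (-1.49, SE 0.048, adjusted p = 4.2e-10), with WT at 188. CIT1, citrate synthase, differed by -1.34 and SDH1 by -1.30. Of 73 mitochondrial ribosomal protein genes, 60 were lower in ulp2 and 2 higher (median -0.42), beside the same shares. Outside the shifted chromosomes, 47 of the 57 were lower. Against WT, 59 of the 73 genes were lower in ulp2 and 2 higher (26.7% and 27.8% of all genes). In slx5, 15 were higher and 6 lower, both below the shares of all genes (25.6% and 25.1%). Against set1, 40 were lower and 3 higher in ulp2 (median -0.25), beside 26.0% and 22.8% of all genes. In slx5, 27 were higher and 1 lower (median 0.17), beside 20.5% and 22.7% of all genes. Both strains thus differed from that reference, in opposite directions. MRP8 (-0.95), RSM27 (-0.78), MRP2 (-0.77) and IMG1 (-0.76) had the largest differences among the called genes.

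Genes of small heat shock and desiccation proteins were mostly lower in ulp2 than in slx5. Of 15 tested genes, 10 were lower in ulp2 and 2 higher (23.0% and 22.7% of all genes), with a median of -0.96. Against the shared WT libraries, 11 were higher and 1 lower in ulp2 (27.8% and 26.7% of all genes), and 14 were higher and 0 lower in slx5 (25.6% and 25.1%). Against set1, 8 were higher and 4 lower in ulp2 (22.8% and 26.0% of all genes), so the lower count was near its share. In slx5, 8 were higher and 0 lower (20.5% and 22.7%). HSP26 (YBR072W, chromosome II, 382030 to 382674), a small heat shock chaperone, stood at 132, 145 and 127 in ulp2 and 464, 474 and 478 in slx5, with WT at 8.77 and set1 at 24.0 (-1.81, SE 0.13, adjusted p = 2.2e-07). DDR2, a multistress response gene, stood at 213, 170 and 161 against 560, 624 and 614, with WT at 10.02 (-1.73, SE 0.22, adjusted p = 3.6e-05). STF2, whose product is linked to desiccation tolerance, stood at 192, 160 and 136 against 603, 627 and 662, with WT at 221 (-1.96, SE 0.11, adjusted p = 1.7e-08). In these 3 genes the groups did not overlap, as in 57.1% of all tested genes. The ulp2 strain was above WT for HSP26 and DDR2 but below it for STF2. The set1 mean was 35.4 for DDR2, below both strains, and 579 for STF2. Against set1, STF2 was not called in slx5 (0.12, adjusted p = 0.37) and was lower in ulp2 (-1.83, adjusted p = 3.2e-08). SIP18, a phospholipid-binding protein made under osmotic stress and desiccation, went the other way, at 56.9, 42.6 and 46.9 in ulp2 and 14.2, 8.93 and 18.1 in slx5 (1.80, SE 0.28, adjusted p = 0.00017).

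The stress response element, CCCCT on either strand, lay in 9 of the 16 promoters of this list and in 21.6% of all promoters of the same length. Stretches of 3 promoters are shown because they belong to strongly lower genes and hold the element, which is in capitals (AGGGG on the opposite strand). Each covers 150 bases from 250 bases before the start, read in the direction of the gene, from RefSeq on build R64. STF2 lies on the minus strand at chrVII:508465-508614, DDR2 on the minus strand at chrXV:231856-232005 and HSP12 on the plus strand at chrVI:107006-107155. HSP12, a membrane-stabilising heat shock protein gene, stood at 382, 373 and 358 in ulp2 and 829, 813 and 900 in slx5, with WT at 11.1 (-1.19, SE 0.12, adjusted p = 3.7e-06).
STF2: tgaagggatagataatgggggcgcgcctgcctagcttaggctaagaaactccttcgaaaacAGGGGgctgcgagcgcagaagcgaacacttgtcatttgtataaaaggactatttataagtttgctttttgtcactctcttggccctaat
DDR2: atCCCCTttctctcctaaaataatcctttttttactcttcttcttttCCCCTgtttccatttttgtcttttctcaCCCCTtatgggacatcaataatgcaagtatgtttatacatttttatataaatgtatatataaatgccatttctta
HSP12: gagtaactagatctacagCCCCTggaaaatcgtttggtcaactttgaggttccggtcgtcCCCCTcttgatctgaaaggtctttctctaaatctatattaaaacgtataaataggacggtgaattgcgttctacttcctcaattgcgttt
The DDR2 stretch has 3 copies, the HSP12 stretch 2 and the STF2 stretch 1. A match of letters is a description and not a measured binding site.

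Other protective systems gave similar counts, beside 23.0% lower and 22.7% higher over all tested genes. Of 21 trehalose and glycogen genes 14 were lower in ulp2 and 0 higher (median -0.43). Outside the shifted chromosomes, 12 of 16 were lower (22.4% of all genes there). GPH1, glycogen phosphorylase, stood at 21.1, 20.8 and 20.7 in ulp2 and 79.2, 76.5 and 78.6 in slx5, with WT at 4.44 (-1.85, SE 0.091, adjusted p = 1e-08). PGM2 (-1.30), phosphoglucomutase, and TPS1 (-0.96), trehalose phosphate synthase, were also lower. Of 28 oxidative stress genes 21 were lower and 3 higher (median -0.44), among them TRX2 (-1.14), thioredoxin, TSA2 (-1.13), a peroxiredoxin, and GRX2 (-1.11), glutaredoxin. CTT1, the cytosolic catalase gene, was not called (-0.21, adjusted p = 0.12).

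Chaperone genes were mostly lower in ulp2. Of 26, 17 were lower in ulp2 and 7 higher (23.0% and 22.7% of all genes). Outside the shifted chromosomes, 14 of 20 were lower and 5 higher (22.4% and 19.1% of all genes there). HSP78 (-1.32), a mitochondrial disaggregase gene, HSP10 (-1.02), the mitochondrial co-chaperonin gene, HSP82 (-0.87), a stress-induced Hsp90 gene, and AHA1 (-0.75), its co-chaperone gene, had the largest differences. HSP82 stood at 131, 130 and 127 in ulp2 and 236, 231 and 246 in slx5. The Hsp70 genes differed in sign: SSA1 (-0.63) and SSA4 (-0.35) were lower and SSA2 (0.27) and SSA3 (0.42) higher. SSA2 lies on chromosome XII, whose median gene was 0.78 above those of the other chromosomes, so SSA2 stood below that level. SSA1 and SSA2 share much sequence, so their separate values are uncertain. The heat shock element GAANNTTC lay in 11 of the 26 promoters and in 11.8% of all promoters.

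Within the SUMO pathway, differences beyond the deleted genes were small. Of 14 genes, 4 were lower in ulp2, ULP2 itself among them, and 2 higher, SLX5 itself and CST9. Over all tested genes 23.0% were lower and 22.7% higher, so this list does not stand out by its counts. SMT3, which encodes SUMO, stood at 547, 558 and 568 in ulp2 and 659, 672 and 680 in slx5 (-0.27, SE 0.043, adjusted p = 0.00021), with WT at 612. ULP1, the other SUMO protease, stood at 33.7, 31.0 and 32.1 against 41.4, 42.6 and 42.1 (-0.37, SE 0.057, adjusted p = 0.00013), with WT at 36.9. AOS1, a subunit of the activating enzyme, differed by -0.34 (adjusted p = 0.011). CST9, a meiotic SUMO ligase gene on chromosome XII, differed by 0.51 (adjusted p = 0.00036). The groups did not overlap in these 4 genes, as in 57.1% of all tested genes. SLX8, the partner of Slx5, was not called, at 27.2, 29.1 and 32.3 against 30.4, 30.5 and 33.6 (-0.09, 95% interval ± 0.19). UBA2 (0.10), UBC9 (-0.03), SIZ1 (0.18), NFI1 (-0.06), MMS21 (-0.02), ULS1 (-0.04) and WSS1 (0.14), which act in SUMO attachment, binding or removal, were not called either. The signs of UBC9, NFI1, MMS21 and ULS1 changed with the scaling, and UBA2, SIZ1 and WSS1 gained a call under some alternatives.

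Proteasome genes were mostly lower in ulp2. Of 34, 25 were lower and 2 higher (median -0.26), beside 23.0% and 22.7% of all genes. Of the 28 outside the shifted chromosomes, 20 were lower (22.4% of all genes there). The number of lower genes ran from 15 to 32 over the alternatives. Against the shared WT libraries, 25 of 34 were higher in slx5 and 0 lower (25.6% and 25.1% of all genes). In ulp2, 6 were higher and 2 lower (27.8% and 26.7% of all genes). Against set1, 16 were higher and 1 lower in slx5 (median 0.15), beside 20.5% and 22.7% of all genes. In ulp2, 4 were higher and 12 lower (median -0.16), beside 22.8% and 26.0% of all genes. The slx5 counts thus lay further from the shares over all genes than the ulp2 counts. SCL1, a core subunit, stood at 286, 327 and 332 in ulp2 and 429, 529 and 525 in slx5 (-0.65, SE 0.10, adjusted p = 0.00016). RPT6 (-0.52), a base ATPase subunit, and PUP2 (-0.50), a core subunit, followed, and RPN13 (0.55), a ubiquitin receptor gene on chromosome XII, was higher. RPN4, the transcription factor of proteasome genes, was the other called higher (0.14, adjusted p = 0.044). Of 17 genes that handle ubiquitin with Cdc48, 10 were lower and 0 higher (23.0% and 22.7% of all genes). CUZ1, a zinc-finger protein gene tied to Cdc48 and the proteasome, stood at 116, 109 and 105 in ulp2 and 174, 179 and 167 in slx5 (-0.65, SE 0.091, adjusted p = 6.5e-05). CDC48 itself differed by -0.28 (adjusted p = 0.00048) and its cofactor gene UFD1 by -0.52 (adjusted p = 3.4e-05).

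The proteasome-associated control element GGTGGCAAA, bound by Rpn4, lay in 27 of the 34 proteasome promoters and in 1.2% of all promoters, on either strand. The 3 stretches below belong to called genes with the largest differences whose stretch holds the element, which is in capitals (TTTGCCACC on the opposite strand). PRE9 lies on the plus strand at chrVII:761142-761291, RPT1 on the plus strand at chrXI:173963-174112 and RPN7 on the plus strand at chrXVI:742204-742353.
PRE9: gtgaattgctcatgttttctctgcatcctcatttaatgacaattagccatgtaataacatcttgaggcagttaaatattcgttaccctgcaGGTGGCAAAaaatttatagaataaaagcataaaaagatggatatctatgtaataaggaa
RPT1: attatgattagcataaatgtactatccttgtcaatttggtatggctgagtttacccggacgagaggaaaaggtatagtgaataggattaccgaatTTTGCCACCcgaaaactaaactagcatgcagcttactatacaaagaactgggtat
RPN7: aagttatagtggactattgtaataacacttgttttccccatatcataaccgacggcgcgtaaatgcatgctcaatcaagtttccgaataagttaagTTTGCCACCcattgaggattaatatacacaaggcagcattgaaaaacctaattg
PRE9, a core subunit gene, stood at 565, 495 and 476 in ulp2 and 713, 682 and 697 in slx5 (-0.45, adjusted p = 0.00091). RPT1 (-0.42), a base ATPase subunit gene, and RPN7 (-0.41), a lid subunit gene, were lower by similar amounts, each with 1 copy of the element.

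Ribosome biogenesis genes were higher in ulp2. Of 76, 56 were higher and 0 lower (median 0.34), beside 22.7% and 23.0% of all genes. Of the 56 outside the shifted chromosomes, 46 were higher (19.1% of all genes there). Over the alternatives the number higher ran from 45 to 66, with 0 lower in each. Against the shared WT libraries, 59 were lower in slx5 and 1 higher (25.1% and 25.6% of all genes). In ulp2, 22 were higher and 15 lower (27.8% and 26.7% of all genes). The largest differences were on the raised chromosomes, in SOF1 (1.30), RLP24 (1.26), NOP56 (1.25) and MAK16 (1.24). NOP56 (YLR197W, chromosome XII, 546097 to 547611), a core box C/D snoRNP protein gene, stood at 1537, 1469 and 1399 in ulp2 and 632, 607 and 607 in slx5, with WT at 1111 (SE 0.090, adjusted p = 2e-07). MAK16, a 60S assembly factor gene on chromosome I, stood at 383, 398 and 379 against 161, 166 and 163, with WT at 254. Elsewhere the differences were smaller. GAR1, a box H/ACA snoRNP gene on chromosome VIII, stood at 666, 702 and 658 against 474, 487 and 500.0, both below the WT mean of 949.6 (0.47, SE 0.096, adjusted p = 0.0013). NOP1, the fibrillarin gene on chromosome IV, differed by 0.28 (adjusted p = 8.9e-05).

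These genes share motifs in their promoters. PAC, GATGAG, lay in 74 of the 76 promoters and in 20.3% of all promoters, and RRPE, AAAATTTT, in 58 of the 76 and in 9.0% of all. The stretches show the genes of the list with the largest differences whose stretch holds both motifs, which are in capitals (CTCATC is PAC on the opposite strand). RLP24 lies on the plus strand at chrXII:166287-166436, NOP56 on the plus strand at chrXII:545847-545996 and MAK16 on the minus strand at chrI:101246-101395.
RLP24: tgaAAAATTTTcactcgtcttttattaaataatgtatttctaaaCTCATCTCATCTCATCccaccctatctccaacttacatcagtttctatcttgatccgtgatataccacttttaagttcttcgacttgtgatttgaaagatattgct
NOP56: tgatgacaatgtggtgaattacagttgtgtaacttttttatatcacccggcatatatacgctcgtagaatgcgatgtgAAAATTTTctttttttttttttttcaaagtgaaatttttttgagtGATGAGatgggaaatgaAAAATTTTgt
MAK16: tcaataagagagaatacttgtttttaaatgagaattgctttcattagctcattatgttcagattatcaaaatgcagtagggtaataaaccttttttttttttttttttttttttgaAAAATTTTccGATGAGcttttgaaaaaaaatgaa
RLP24, a gene for a 60S assembly factor, has 3 PAC matches in a row, of which neighbours share a base, and NOP56 has RRPE at 172 and 110 bases before the start. RLP24 stood at 664, 640 and 636 in ulp2 and 277, 267 and 263 in slx5 (SE 0.065, adjusted p = 1.2e-08).

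Cytosolic ribosomal protein genes were more often higher than lower in ulp2, and most were not called. Of 137, 38 were higher and 6 lower (median 0.13), beside 22.7% and 23.0% of all genes. Outside the shifted chromosomes, 22 of 100 were higher and 3 lower (19.1% and 22.4% of all genes there). Against WT, 10 were higher and 67 lower in ulp2 (27.8% and 26.7% of all genes). In slx5, 0 were higher and 97 lower (25.6% and 25.1%). Against set1, 11 were higher and 61 lower in ulp2 (22.8% and 26.0%), and 1 higher and 92 lower in slx5 (20.5% and 22.7%). Over the alternatives the number lower ran from 4 to 26 and the number higher from 29 to 47, so the balance of this family depended on the processing. RPL8A (chromosome VIII) stood at 313, 277 and 301 in ulp2 and 849, 840 and 898 in slx5, with a WT mean of 1504 (-1.54, SE 0.076, adjusted p = 1.1e-08). Its near copy RPL8B (chromosome XII) stood at 2043, 1857 and 1878 against 1015, 985 and 972, with WT at 1586 (0.96, SE 0.081, adjusted p = 7.8e-07). RPL7B (0.98), RPS29A (1.12) and RPS0B (0.99) were higher, the last 2 on chromosome XII. Paralogous ribosomal protein genes share long stretches of sequence, and how the authors' counting divided shared fragments was not stated.

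**Figure D4:**
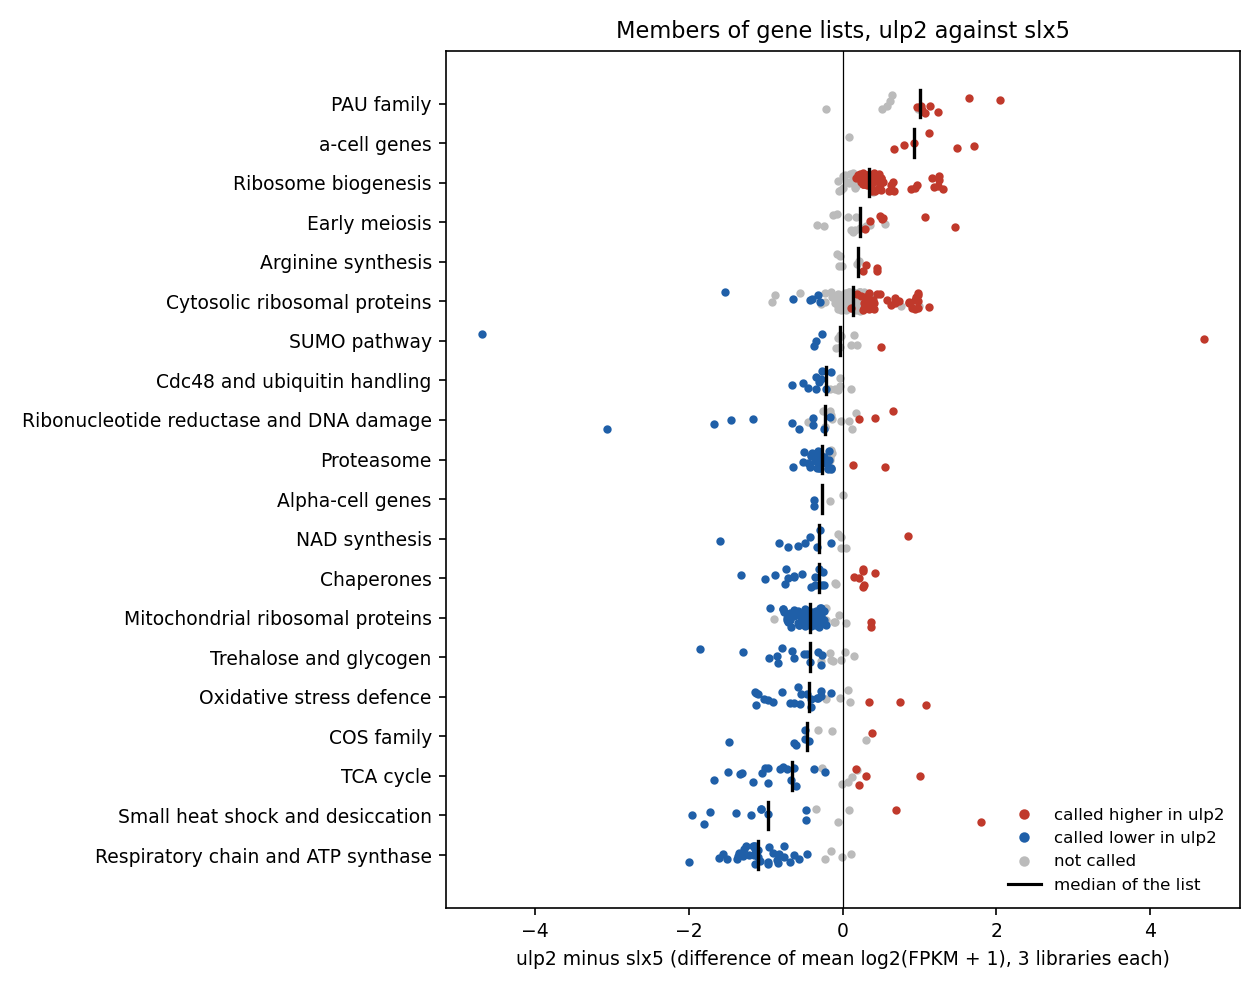
Difference ulp2 minus slx5 (x axis, mean log2(FPKM + 1) of 3 libraries each) of every tested member (points) of 20 gene lists (y axis, ordered by median, black bars), coloured by call. The respiratory chain list is lowest, with a median of -1.10 and 35 of 39 members lower, and ribosome biogenesis has 56 of 76 members higher.

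Nutrient pathways showed mixed differences. Over all tested genes, 22.7% were higher and 23.0% lower, and 19.1% and 22.4% outside the shifted chromosomes. PNC1, nicotinamidase, stood at 272, 238 and 233 in ulp2 and 737, 756 and 754 in slx5, with WT at 311 (-1.60, SE 0.066, adjusted p = 2.3e-09). Of 14 genes of NAD synthesis, 9 were lower and 1 higher, NMA1 (0.85) on chromosome XII. Of 31 genes of sulfur assimilation and methionine synthesis, 11 were higher, MET17 and CYS3 (0.82, chromosome I) among them, and 4 lower, including the transporter gene MUP1 (-0.82) and SAM2 (-0.81), an S-adenosylmethionine synthetase gene. The number higher was 4 with totals equalised without RPL41A and RPL41B. Of 10 arginine synthesis genes 4 were higher and 0 lower, ARG7 (0.45) among them, and ARG1 (0.30) lost its call without ulp2 replicate 0 (adjusted p = 0.050). Of 9 lysine synthesis genes 3 were higher, LYS1 (0.43), LYS20 (0.39) and LYS4 (0.39), and 1 lower, LYS5 (-0.46) on chromosome VII. Of 19 purine synthesis genes 10 were higher and 3 lower, with ADE1 (1.0, chromosome I), IMD3 (1.03, XII) and ADE13 (0.88, XII) on raised chromosomes, and 4 higher and 1 lower of the 9 outside the shifted ones.

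Phosphate, metal, sterol and oxygen genes moved in both directions within each list, as did all tested genes (22.7% higher and 23.0% lower). PHO11, a secreted acid phosphatase gene on chromosome I with a near copy on another chromosome, stood at 54.2, 52.1 and 48.6 in ulp2 and 19.0, 17.2 and 15.5 in slx5 (1.53, SE 0.082, adjusted p = 1.7e-08). PHO89 (0.98), a phosphate transporter gene, was higher and PHM8 (-1.12) and SPL2 (-0.77) lower, and of the 21 genes 6 were higher and 7 lower. Of 26 iron regulon genes 8 were higher, FIT1 (1.0), FIT3 (0.89) and FET4 (0.88) among them, and 9 lower, SIT1 (-0.80) among them. ERG4, the last enzyme of ergosterol synthesis, stood at 165, 146 and 143 in ulp2 and 423, 405 and 396 in slx5, with WT at 215 (-1.43, SE 0.074, adjusted p = 1.2e-08). The ergosterol list had 9 lower and 6 higher of 28, and HMG2 (0.98), ECM22 (0.96) and ERG27 (0.87) were higher on chromosome XII. ANB1, the hypoxic form of translation factor eIF5A, stood at 133, 95.9 and 107 in ulp2 and 40.9, 39.1 and 40.5 in slx5, with WT at 217 (1.44, SE 0.13, adjusted p = 1.1e-06). AAC3 (1.12), a hypoxic ADP/ATP carrier gene, and TIR2 (1.02), a hypoxic cell wall gene, were also higher, while ROX1 (-0.94), the repressor of hypoxic genes, was lower. Of 19 hypoxic genes 5 were higher and 6 lower.

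Cell cycle and meiotic lists held few large differences apart from genes on the raised chromosomes. The shares over all tested genes were 22.7% higher and 23.0% lower, and 19.1% and 22.4% outside the shifted chromosomes. Of 33 G1 and S phase genes 10 were higher and 12 lower, and 4 and 11 of the 23 outside the shifted chromosomes, with CDC21 (-0.57), thymidylate synthase, the largest there. Of 30 G2 and M phase genes 12 were higher and 4 lower, among them KIN3 (1.09, chromosome I) and CTS1 (0.92, XII), the chitinase of cell separation. Of 37 cohesin, spindle and checkpoint genes 11 were lower, MCD1 (-0.49), a cohesin subunit gene, among them, and 4 higher, of which YCS4 (0.76), SMC4 (0.74) and STU2 (0.65) lie on chromosome XII. Of 21 early meiosis genes 7 were higher and 0 lower, led by RED1 (1.46, XII) and REC102 (1.08, XII). RED1, a protein of the meiotic chromosome axis, stood at 20.3, 23.4 and 24.2 in ulp2 and 6.74, 8.21 and 7.75 in slx5, with WT at 7.57. REC8 (0.53) and SPO13 (0.52) lost their calls under some alternatives, and the number higher ran from 2 to 10. Of 10 histone genes 0 were higher and 1, HHO1 (-0.39), the linker histone, lower.

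Mating, cell wall and remaining lists were divided as well, beside 22.7% higher and 23.0% lower over all tested genes. Of 14 genes of mating fusion and agglutination 8 were higher in ulp2 and 2 lower, with the wall hydrolase gene SCW10 at 913, 961 and 961 in ulp2 and 640, 674 and 650 in slx5 (0.53, SE 0.054, adjusted p = 4.2e-06). The pheromone-induced fusion gene PRM1 differed by 0.48, and both groups stood above its WT mean of 5.93. Of 16 pheromone signalling genes, SST2 (0.86), the regulator that dampens the signal, and the kinase gene STE11 (0.76) were higher, both on chromosome XII, and STE50 (-0.40) and DIG2 (-0.31) lower. Of 32 cell wall genes 11 were higher and 10 lower, with FKS1 (0.85), glucan synthase, on chromosome XII at 479, 462 and 467 against 283, 256 and 242. Of 18 genes of histidine, leucine and branched-chain synthesis 8 were higher and 4 lower, LEU9 (0.62) and HIS6 (0.53) higher and BAT2 (-0.56) lower outside the shifted chromosomes. Of 17 zinc regulon genes 6 were higher and 4 lower, led by the transporter gene ZRT2 (0.85, XII). Nucleolar silencing genes were even, with 4 higher and 4 lower of 17, and SIR3 (0.59, XII) was higher. Of 13 CCR4-NOT and deadenylation genes 3 were higher, CCR4, DHH1 (0.33) and NOT3 (0.31), and 2 lower, PAN2 (-0.34) on chromosome VII among them; DHH1 lost its call with totals without RPL41A and RPL41B (adjusted p = 0.11).

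Subtelomeric families differed in opposite directions, beside 22.7% higher and 23.0% lower over all tested genes. Of 14 tested PAU genes, a family of cell wall mannoprotein genes that resemble each other closely, 8 were higher in ulp2 and 0 lower, and the number higher ran from 4 to 10 over the alternatives. PAU7 (chromosome I) stood at 56.6, 58.9 and 66.5 in ulp2 and 5.63, 20.4 and 22.1 in slx5 (2.05, SE 0.44, adjusted p = 0.0019), with slx5 replicate 0 below the other slx5 libraries. Of 10 tested COS genes, a family of endosomal membrane protein genes near chromosome ends, 6 were lower and 1 higher, with 3 lower and 1 higher of the 7 outside the shifted chromosomes. COS12 (chromosome VII) stood at 3.8, 4.60 and 4.69 in ulp2 and 14.8, 13.0 and 14.0 in slx5, with WT at 0.822 (-1.48, SE 0.15, adjusted p = 3.3e-06). Members of either family may share fragments, so their separate values are uncertain.

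Among the largest rises of genes that the annotation does not place on chromosomes I and XII, several were short or unplaced features. Of the 53 genes at least 2-fold higher that the annotation does not place on I or XII, 20 were not matched to it by systematic name, and 11 of these carry systematic names of those 2 chromosomes. YAR030C (1.73), YAR053W (1.73), YAR047C (1.70) and YLR198C (1.43) are such genes, and YAR047C lost its call without slx5 replicate 0 (adjusted p = 0.066) and with a pseudocount of 0.1 (adjusted p = 0.14). The box C/D RNA snR18 stood at 636, 564 and 645 in ulp2 and 239, 143 and 183 in slx5 (1.73, SE 0.19, adjusted p = 8.7e-06), and it is encoded within the intron of EFB1 on chromosome I. The box H/ACA RNAs snR44 (1.39) and snR30 (1.31) are listed on chromosome XII by RefSeq under their symbols, so that they too belong to a raised chromosome. These small nucleolar RNAs are not polyadenylated in their mature form, and the libraries were made from oligo(dT)-selected RNA. Outside chromosomes I and XII, YJL047C-A had the largest called rise after SLX5 itself, among genes with at least 10 FPKM and no overlap. YJL047C-A stood at 35.3, 12.9 and 62.4 in ulp2 and 12.4, 0 and 0 in slx5 (3.74, SE 1.28, adjusted p = 0.030). It lost its call without any of ulp2 replicates 0 and 2 or slx5 replicates 1 and 2, with adjusted p of 0.069 to 0.11. YOR293C-A (2.85, adjusted p = 0.040) and YFL031C-A (1.26, adjusted p = 0.026) were likewise lost when single libraries were left out, the former also with a pseudocount of 0.1 (adjusted p = 0.060).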

How the data were processed

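The deposited table holds FPKM for 7126 genes in 15 libraries. The submitters' processing notes name TopHat2 2.0.12, Cuffdiff (its version is not given in the sources used here) and build R64; annotation, parameters and strandedness were not stated. Systematic names of 6048 genes matched RefSeq R64. Genes reaching 1 FPKM in 3 or more libraries were tested on log2(FPKM + 1) with limma 3.58.1 in R 4.3.3 (5 group means, 10 residual degrees of freedom, eBayes with a trend). A fold change on this scale understates that of low genes. Chromosomes and lists are described by counts and medians, with no test. List counts of ulp2 against slx5 stand beside shares over all tested genes of 22.7% higher and 23.0% lower. Outside chromosomes I, VII, XI and XII the shares were 19.1% and 22.4%, and lists near these shares do not stand out. The members and the 40 lists were chosen with earlier results of these data known. Named genes are the deleted, marker, mating-type and SUMO genes, CLN3 and CCR4, the 12 largest called rises and falls outside chromosomes I and XII with at least 10 FPKM and no overlap, the 5 most abundant called genes of I, VII and XII, the 3 lowest differences on I and XII, and up to 4 called members per list with the largest difference; some further list members and exceptions were named after their values were seen. In this choice, genes not matched to the annotation counted as outside chromosomes I and XII. Replicate numbers were not treated as pairs. The 16 alternatives changed the pseudocount, filter, scaling, samples fitted, variance trend and replicate block, or left out 1 library.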

Additional observations from a re-analysis of the deposited data

How the results depend on the processing

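Under the 16 alternatives the direction of each of the 4 chromosome medians held. The medians of chromosomes I, XII, VII and XI relative to the rest were 1.0, 0.81, -0.31 and -0.26 with a pseudocount of 0.1, and 0.80, 0.70, -0.26 and -0.21 with a pseudocount of 5. Chromosome XII moved to 0.80 and XI to -0.24 with a minimum of 10 FPKM, and XII, VII and XI to 0.80, -0.28 and -0.23 under quantile normalization. Leaving out single libraries gave 0.77 to 0.79 for XII, -0.30 to -0.29 for VII and -0.25 to -0.23 for XI. The genes at least 2-fold higher in ulp2 numbered 83 with a pseudocount of 5 and 239 with the common median. The cause of these shifts was not tested, except that a larger pseudocount by construction shrinks low genes. The replicate numbers did not pair the libraries: the deviations of same-numbered libraries correlated by 0.05, -0.00 and -0.01. Adding the replicate block to the fit called 1474 genes higher and 1481 lower, and among the named genes it lost the calls of YOR293C-A (adjusted p = 0.055) and GCV3 (adjusted p = 0.060). Leaving out single libraries called 1234 to 1391 genes higher and 1233 to 1385 lower.

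Of the 200 named genes, 9 that were not called changed sign, the cause of which was not tested. With the common median HIS3 moved to 0.010, UBC9 to 0.049, NFI1 to 0.0072, MMS21 to 0.049 and ULS1 to 0.035. With totals without RPL41A and RPL41B, SET1 moved to -0.0032, SAG1 to -0.074 and BDH1 to -0.030. Under quantile normalization SAG1 moved to -0.086 and STE6 to -0.086. Leaving out single libraries gave -0.055 to 0.10 for SAG1, -0.035 to 0.14 for BDH1, -0.092 to 0.049 for UBC9, -0.12 to 0.041 for NFI1, -0.13 to 0.078 for MMS21 and -0.079 to 0.014 for ULS1. Calls were lost in 50 values of 15 genes and gained in 4 values of 3 genes. With no counts, depth sets no interval here, and 645 to 683 genes were at 0 per library.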
